A study of Homo sapiens with 25 samples.

Results

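The comparison set Jurkat cells grown for 3 days in medium with 12.5% of the histidine of the reference medium against the same cells in 100% histidine medium on the same day. Jurkat is an established human T-cell leukaemia line that carries a rearranged T-cell receptor and divides without stimulation. The 5 libraries were chosen by their labelled day and medium: 3 at 12.5% (replicates 1, 2 and 3) and 2 at 100% (replicates 1 and 3), out of 25 libraries in the series. Every library came from the same line with no labelled genetic change or drug, and the medium was the only labelled difference between the groups of a day. Libraries of day 3 at 50%, 25% and 0% histidine (3 each) and of day 6 at 100% (3) and 12.5% (2) are used below as points of reference. Nothing in the labels ties replicates to separate cultures. The p-values therefore reflect the spread between libraries alone, which may be technical.

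Human cells cannot make histidine and depend on the supply in the medium. When an amino acid runs short, its uncharged transfer RNA activates the kinase GCN2 (EIF2AK4), which phosphorylates eIF2, lowers general translation and favours translation of the transcription factor ATF4, whose targets import and make amino acids and charge transfer RNAs. A second sensor, the kinase complex mTORC1, ties amino acid supply to ribosome production, lipid synthesis and cell growth. In T-lineage leukaemia cells, growth and division also depend on MYC, on sterol supply and on glucose use.

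The deposited values are normalized counts per gene, here called counts for short, and differences are given as log2(value + 1). Of 36755 genes in the table, 22994 reached 10 counts in 2 or more of the 25 libraries and were tested with limma. At an adjusted p under 0.05, 6018 genes (26.2%) differed between 12.5% and 100%, 3257 higher (14.2%) and 2761 lower (12%) at 12.5%. With 2 libraries on one side, 48.6% of all tested genes had groups that did not overlap, so a lack of overlap by itself says little. At least 2-fold differences were found in 522 of the higher and 875 of the lower genes, and the median size of the called differences was 0.61 on the log2 scale. The calls were denser among protein-coding genes (35.6% of 14859) than among long noncoding RNAs (10.9% of 2088) or pseudogenes (9.45% of 984), classes whose median levels at 100% were 486, 15.9 and 11 counts. Of the 6018 calls, 4118 were made again without replicate 1 of 100% and 4169 without replicate 3 of 100%, where the lone remaining library is assumed to vary like the other groups.

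The 5 libraries were alike in the number of genes with at least 10 counts (17445 to 17652 at 12.5% and 17714 to 18244 at 100%), and all 13 T-lineage markers of the fixed list were tested. Mitochondrial transcripts took 2.23% to 3.32% of the counts at 12.5% and 3.83% to 5.32% at 100%. Markers of other cell types were not all absent, and some of the fibroblast and matrix list were not low. COL1A1 measured 2752 and 2429 counts at 100% and 2872, 800.7 and 539.1 at 12.5%. The T-lineage marker CD5 measured 1352 and 1471 counts at 100%. Replicate 3 of 12.5% held haemoglobin transcripts that the other 4 libraries of the comparison held at lower levels: HBA2 measured 82.83 and 64.46 counts at 100% and 74.44, 97.69 and 1689 at 12.5%, and the 6 erythroid markers summed to 191.4 to 3832 counts at 12.5% against 281.1 to 528.2 at 100%. On day 3 the same markers summed to 3530, 3677 and 5043 counts at 50% and to 4004, 4935 and 417 at 0%. At 25% they summed to 360.2, 225.6 and 280.4. The 8 fibroblast and matrix markers summed to 1856 to 7746 counts at 12.5% and 5358 to 7637 at 100%, and the 7 B-cell markers to 847.5 to 869.5 and 339.7 to 405, most of it CD79A. The 9 myeloid markers summed to 194.5 to 291.3 and 224.7 to 282.4 counts, the 6 epithelial markers to 206 to 363 and 295.5 to 406.3, and the 6 heart markers to 4.43 to 16.7 and 22.3 to 25.4. MPO of the myeloid list and EPCAM of the epithelial list were listed at 0 in all 5 libraries. Other members of these lists were present, such as LYZ at 109.2 to 219 counts and KRT18 at 85.76 to 213.2. Without replicate 3 of 12.5%, 5362 genes were called (2910 higher, 2452 lower), and the part of these markers in the results was otherwise not tested.

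The largest rise among genes with at least 100 counts in the lower group was in TXNIP, the thioredoxin-interacting protein that restrains glucose uptake (chromosome 1, 145992435 to 145996600, minus strand, GRCh38). TXNIP measured 743.4 and 903.3 counts at 100% and 11740, 11570 and 11460 at 12.5%, 14.1-fold higher (log2 3.82, SE 0.09, adjusted p = 9.43e-21). All 3 libraries at 12.5% lay far above both at 100%. Its relative ARRDC4, which acts on the same glucose transporters, rose by 2.58, and ARRDC3 by 1.11. TRIB3, a pseudokinase induced in amino acid and endoplasmic reticulum stress, measured 4607 and 4158 counts at 100% and 27560, 25780 and 26470 at 12.5% (6.08-fold higher, log2 2.60, SE 0.09, adjusted p = 9.4e-17). For both TXNIP and TRIB3 the libraries of each group lay within a narrow band and the bands were well separated. Other large rises were ZNF185 (2.13), SNHG29 (2.07), SNHG5 (2.04), SNHG32 (2.04), RGS16 (1.81), a brake on G-protein signalling, KLF10 (1.78), the RAS regulator RASAL3 (1.77), AP3B2 (1.76) and SPNS3 (1.75).

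The falls reached further than the rises. HSPA1B, an inducible HSP70 chaperone, measured 21220 and 18660 counts at 100% and 304.1, 217.1 and 234.5 at 12.5%, 79.6-fold lower (log2 -6.31, SE 0.35, adjusted p = 2.91e-10). CHI3L2, a chitinase-like protein, went from 16110 and 19090 to 1742, 1633 and 1709 (10.3-fold lower, adjusted p = 4.72e-21). No library at 12.5% came near the level at 100% for either gene. ALDH1A2, an enzyme of retinoic acid synthesis that T-leukaemia cells with the TAL1 complex express, fell by 3.02 (8.12-fold). Other large falls were in HMGCS1, CYP51A1, INSIG1, MSMO1, SCD and FADS2 of lipid synthesis, DNAJB1 of the heat shock response, and XPNPEP3. XPNPEP3, an aminopeptidase, read 858.2 and 1320 counts at 100%, a mean of 295.2 at 50% and 202.8, 170.1 and 157.2 at 12.5%. It was not called when the 3 libraries at 50% took the place of those at 100%. The same held for RIGI, PARP11, DISP1, PRSS16, CCNB1, RPS6, MT-ND5, ZNF662, CEBPZ, CXCR4, ENO2 and MXD3.

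**Figure D1:**
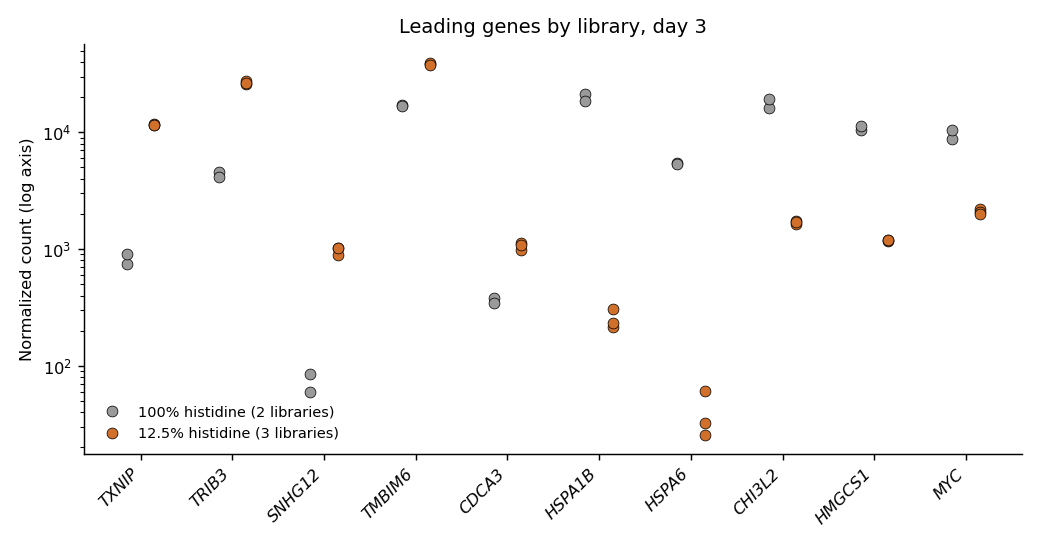
Normalized counts (log axis) of 10 genes in each library of day 3, grey for the 2 libraries at 100% histidine and orange for the 3 at 12.5%. The groups do not overlap for any of the 10 genes, with TXNIP between 11460 and 11740 at 12.5% against 743.4 and 903.3 at 100%, and HSPA1B between 217.1 and 304.1 against 18660 and 21220.

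Few genes went from near nothing to a clear signal. With every library at 100% under 10 counts and a mean of at least 50 at 12.5%, 4 genes were called, of which DISP1, CNTN4 and PRSS16 have a usable symbol. CNTN4, an adhesion molecule of neurons, measured 4.64 and 2.15 counts at 100% and 65.17, 98.91 and 88.27 at 12.5%. In the other direction there were 2 genes, among them MYL4, a myosin light chain, at 75.9 and 67.88 counts against 0, 3.47 and 0. CNTN4 had a mean of 2.24 counts at 50%, whereas DISP1 already stood at 67.95 there. The call of DISP1 was lost with library position in the fit, without replicate 3 of 100% and without replicate 2 of 12.5%, and that of PRSS16 without replicate 1 of 100% or replicate 2 of 12.5%.

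By difference in counts, which is not per length and so weighs long and abundant transcripts, the largest rises included TPT1, TRIB3, TMBIM6, H3-3B, SLC7A5, RPS6 and TXNIP. TMBIM6, a protein of the endoplasmic reticulum that limits calcium release and cell death, went from 17180 and 16920 counts to 38290, 39510 and 37730 (log2 1.18, adjusted p = 5.55e-15). H3-3B, a replacement histone, rose 2.24-fold and TPT1, whose message is controlled by mTORC1, 1.58-fold. The largest falls in counts were in EEF1A1, SCD, RPL3, EEF2, HSP90AA1, MT-ND5, ACTB and DNAJB1. The call of RPS6 was lost with library position, against the 50% reference, without replicate 1 of 100% and without replicate 1 of 12.5%. RPL3, a protein of the large ribosomal subunit, went from 56560 and 64160 counts to 31520, 29510 and 30580 (1.97-fold lower). EEF1A1 (log2 -0.47), EEF2 (-0.39) and ACTB (-0.31) were lower as deposited but took positive, uncalled values under quantile normalization (0.04, 0.14 and 0.09). MT-ND5 ranged from 35020 to 50700 counts at 100% and from 16870 to 25000 at 12.5%, and its call (adjusted p = 0.0436) was lost in 9 of the alternatives, among them leaving out either library at 100%.

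On the sensing side, the messages of the eIF2 pathway changed in part. EIF2S1, the eIF2 subunit that GCN2 phosphorylates, went from 2261 and 2312 counts to 4416, 4801 and 4584 (log2 1.01, SE 0.07, adjusted p = 5.51e-12). EIF2AK4, which encodes GCN2 itself, fell from 2807 and 2954 to 2259, 2097 and 2135 (log2 -0.41), and its partner GCN1 fell by 0.22, a call lost without either library at 100%. PPP1R15A, which brings a phosphatase to eIF2, rose by 0.40. Of 16 tested members of this list 3 rose and 5 fell, with a median of -0.05 against -0.04 over all tested genes, and 2 fell without replicate 3 of 100% and 3 in the fit of the 5 compared libraries alone.

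ATF4 and its partners did not move as one. The ATF4 message measured 16440 and 18420 counts at 100% and 16940, 16590 and 16890 at 12.5%, overlapping groups (log2 -0.05, SE 0.05, adjusted p = 0.562). ATF4 is controlled chiefly at translation, which these libraries do not measure. Its dimer partners CEBPG (log2 1.27, adjusted p = 1.27e-14) and CEBPB (1.16) rose, as did JDP2 (0.75), DDIT3, which encodes CHOP (0.72), and ATF5 (0.60). NUPR1, a stress-induced chromatin protein, fell by 1.16, CEBPA by 0.56 and CEBPZ by 0.23. ATF3 was at -0.30 (adjusted p = 0.143). With the 50% libraries as the reference both ATF3 (-0.59) and ATF4 (-0.15) were called lower. The calls of NUPR1 and CEBPZ were lost in 8 alternatives each and that of CEBPA in 3, in each case also without either library at 100%.

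Of 19 tested effector targets of ATF4, 10 rose and 2 fell (median 0.18). That share is to be read against 14.2% and 12% of all tested genes, and 35.6% of protein-coding genes in either direction. TRIB3 led, followed by SLC7A11, the cystine and glutamate exchanger, at 704.3 and 670 counts against 1375, 1585 and 1346 (log2 1.06, adjusted p = 2.9e-08). XPOT, which exports transfer RNAs from the nucleus, rose by 0.76, and SESN2, an inhibitor of mTORC1, by 0.72 (2065 and 2143 counts against 3581, 3482 and 3321). DDIT4, another inhibitor of mTORC1, went the other way, from 3715 and 3503 counts to 1308, 1230 and 1470 (log2 -1.44, adjusted p = 5.1e-12). CTH, an enzyme of cysteine synthesis, fell by 1.06. The classical targets ASNS (1749 and 1742 counts against 1704, 1694 and 1775) and CHAC1 (938.2 and 836.1 against 929.2, 943.7 and 985.2) did not pass the test, with adjusted p-values of 0.924 and 0.454 and overlapping groups. Without replicate 3 of 100% the rising members of this list numbered 5 and without replicate 1 they numbered 9.

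Amino acid carriers showed small rises in the pair that brings in histidine and other large neutral amino acids. SLC7A5, the LAT1 transporter, measured 50210 and 54130 counts at 100% and 64730, 65700 and 63450 at 12.5% (1.24-fold higher, adjusted p = 8.25e-06). Its heavy chain SLC3A2 rose by 0.50, SLC43A1 by 0.66 and SLC1A5, a glutamine carrier, by 0.24. SLC38A5, a carrier of histidine and glutamine, fell by 0.73 and SLC7A8, the LAT2 transporter, by 0.58, a call lost without replicate 3 of 100%. In all 5 of 20 tested carriers rose and 2 fell, with 13 not called, which is near the share over protein-coding genes (35.6% in either direction).

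The enzymes that charge transfer RNAs split into rising and falling members. HARS1, the histidyl-tRNA synthetase, measured 1871 and 2031 counts at 100% and 2107, 1877 and 2061 at 12.5%, which did not pass the test (log2 0.05, adjusted p = 0.721), and its value was negative under quantile normalization (-0.04) and without replicate 1 of 100% (-0.01). HARS2, the mitochondrial enzyme, fell by 0.36, a call lost without replicate 3 of 100% or replicate 2 of 12.5%. SARS1 (0.87), WARS1 (0.83), MARS1 (0.71) and AARS1 (0.51) were the largest of 8 rises among the 20 cytosolic synthetases. QARS1, the glutaminyl-tRNA synthetase, led 7 falls, from 4827 and 5480 counts to 1882, 1744 and 1583 (2.97-fold lower, adjusted p = 3.86e-14). The set's median was 0.05.

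Serine, glycine, proline and one-carbon enzymes leaned lower, with 6 of 22 higher and 10 lower (median -0.14). PSPH, the last enzyme of serine synthesis, rose by 0.71 and GOT1 by 0.70, while ALDH1L1, a folate enzyme (log2 -2.502), GLUL, glutamine synthetase (-0.89), and CBS (-0.81) fell. Among 19 tested genes of histidine handling and of proteins that carry modified histidine, 3 rose and 3 fell. These calls were no denser than over protein-coding genes (35.6% in either direction). DPH3, needed for the diphthamide that replaces a histidine in EEF2, rose from 550.6 and 528.9 counts to 1064, 1095 and 1072, and CNDP2, which cleaves histidine-containing dipeptides, by 0.73. SETD3, the actin histidine methyltransferase, rose by 0.35, while DPH7 fell by 0.65 and EEF2 itself by 0.39. The call of DPH7 was lost without replicate 3 of 100% or replicate 1 of 12.5%.

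Of 42 tested genes of mTORC1 and its amino acid sensors, 9 rose and 7 fell (median 0.12). That is near the share over protein-coding genes, of which 35.6% were called in either direction. CASTOR1, the arginine sensor, fell from 178.2 and 229.3 counts to 95.88, 44.91 and 80 (log2 -1.51, adjusted p = 0.000161), MIOS by 0.86 and WDR59 by 0.79, both parts of the GATOR2 complex. The lysosomal arginine sensor SLC38A9 rose by 0.42, a call lost without replicate 1 of 100%. Without replicate 1 of 100% only 2 of the rises were called.

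Most enzymes of cholesterol synthesis were lower. Of 10 tested enzymes from squalene to cholesterol all 10 were called lower (median -1.88), and of 10 enzymes of the mevalonate pathway before squalene 8 fell and 2 rose (median -1.60). HMGCS1, which makes HMG-CoA, measured 10530 and 11360 counts at 100% and 1167, 1189 and 1195 at 12.5% (9.23-fold lower, adjusted p = 7.45e-21). Among the later enzymes CYP51A1 (-3.03), MSMO1 (-2.84), LSS (-2.48) and DHCR7 (-2.41) fell the most and NSDHL (-0.76) the least. PMVK (0.73) and GGPS1 (0.59) were the 2 members of the mevalonate list that rose. PMVK is the mevalonate-pathway kinase that follows MVK, and GGPS1 makes the lipid used to anchor small GTPases.

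Of 14 tested genes of SREBP regulation and lipoprotein uptake 7 fell and 2 rose. SREBF2, the transcription factor that drives sterol genes, measured 8701 and 8956 counts at 100% and 3210, 3183 and 2718 at 12.5% (2.91-fold lower, adjusted p = 3.56e-15), SREBF1 fell by 0.88 and INSIG1, which holds the SREBP proteins in the endoplasmic reticulum and is itself their target, was lower (log2 -2.84). MBTPS1, a protease that activates SREBP, rose by 0.30. SCAP and INSIG2 were not called. Among LXR targets and efflux genes, which answer to surplus sterol, 3 of 10 rose and 3 fell. APOE, a lipid carrier, fell from 769.4 and 539.5 counts to 210.6, 98.78 and 104 (log2 -2.31), a call that was lost without replicate 1 of 100%.

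Fatty acid genes followed the same direction in 17 of 28 tested members, with 1 higher (median -0.57). SCD, which makes monounsaturated fatty acids, went from 59830 and 60760 counts to 10060, 9878 and 8690 (6.33-fold lower), FADS2 fell by 2.55, FADS1 by 1.59 and FASN, fatty acid synthase, from 13410 and 14950 counts to 3807, 3359 and 3437 (4.01-fold lower). ACACA (-1.47) and ACSS2 (-1.83), which supply the building blocks, also fell. The levels at 50% were near those at 100% for each of these enzymes, for instance 62070 counts for SCD (mean of 3 libraries), and those at 25% and 0% lay nearer to 12.5% than to 100% (15670 and 11290 for SCD).

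Inducible HSP70 genes fell steeply. Of 12 tested HSP70, HSP110 and HSP90 genes 8 fell and 2 rose, with a median of -0.93. The 3 inducible HSP70 genes fell most: HSPA6 from 5505 and 5342 counts to 32.62, 25.54 and 60.74 (143-fold lower, log2 -7.16, SE 0.65, adjusted p = 1.33e-07), HSPA1B (log2 -6.31) and HSPA1A (-3.37). Because HSPA1A and HSPA1B have almost the same sequence, the split of counts between this pair is uncertain. Of 26 tested J-proteins, small heat shock proteins and co-chaperones 10 fell and 6 rose, with a median of -0.10. DNAJB1, the J-protein partner of HSP70, went from 23920 and 24440 counts to 2848, 2992 and 2680 (8.52-fold lower), BAG3 fell by 1.29 and HSPB1 by 1.28, while DNAJB2 rose by 0.91 and STUB1, a ubiquitin ligase, by 0.65. The constitutive members moved less, HSPA8 by -0.86 and HSP90AB1 by -0.91.

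The promoter of HSPA6 is shown because it holds the element through which heat shock factors act. It spans chr1:161524430-161524549 on the plus strand (RefSeq, GRCh38.p14, from 110 bases before to 10 bases after the start), and the capitals mark the heat shock element (GAA, TTC and GAA with 2 free bases between neighbours, here on the other strand).
HSPA6: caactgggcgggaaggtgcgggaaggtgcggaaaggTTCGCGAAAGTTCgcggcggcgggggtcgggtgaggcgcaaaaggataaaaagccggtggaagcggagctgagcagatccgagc
The element was found on either strand in 2 of the 11 cytosolic HSP70, HSP110 and HSP90 genes with a promoter in the table (18.2%) and in 0.353% of the promoters of tested genes. These 2 were HSPA6 and the constitutive HSPA8, which fell much less. No match was found for HSPA1A, HSPA1B or DNAJB1, whose messages fell further than that of HSPA8. In the list of J-proteins, small heat shock proteins and co-chaperones, 3 of 23 promoters held a match (13.04%). An exact match was thus neither shared by all the steep falls nor limited to them. The search took only these exact letters and spacing near the start, so imperfect or more distant elements would be missed. The lack of a match therefore does not show that a promoter has no such element. Whether heat shock factors act on these genes was not tested. HSF1, the main heat shock factor, rose by 0.24 in message, a call that was lost without replicate 1 of 100%. A match of letters is a description and shows no binding.

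These chaperone levels set apart the day 3 libraries at 100% and 50% from those at lower levels on day 3 and at 100% on day 6. Day 6 at 50% and 25% was not looked at. HSPA1B had a mean of 23930 counts at 50%, 267.1 at 25%, 194.8 at 0% and 720.8 at 100% on day 6. HSPA6 had means of 6523, 54.59, 32 and 166.2 in the same groups. In the 100% medium the level on day 6 was thus nearer to the 12.5% level of day 3 than to the 100% level of day 3. DNAJB1 showed the same order, with 2596 counts at 100% on day 6.

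Endoplasmic reticulum chaperones did not share that fall. Of 19 tested, 9 rose and 5 fell (median 0.19). SEL1L, which removes misfolded proteins from the compartment, rose from 3482 and 2943 counts to 5603, 6889 and 5546, HYOU1 from 7445 and 7733 to 14040, 13380 and 13260 (log2 0.84, adjusted p = 5.56e-06) and DNAJB9 by 0.83. HSPA5, the compartment's main HSP70, fell from 12180 and 11810 counts to 7751, 6845 and 6572 (1.70-fold lower), and SDF2L1 by 0.81. Sensors and factors of the unfolded protein response rose in 10 of 15 and fell in 2 (median 0.33), with CREB3 (1.12) and SELENOS (0.74) among the rises and XBP1 and ERN1 not called. The rises numbered 5 without replicate 1 of 100% and 6 under quantile normalization, with library position or in the fit of the 5 compared libraries alone. DERL3, a channel component, fell from 30.6 and 23.75 counts to 4.47, 0.33 and 3.20.

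Of the 140 tested members of 5 lists of mitotic genes, 64 were called higher and 10 lower at 12.5%. Of 25 tested mitotic kinases, cyclins and their regulators 16 rose and 2 fell (median 0.36), and of 24 condensin, cohesin and topoisomerase genes 13 rose and 1 fell (median 0.25). Spindle checkpoint and anaphase genes (12 of 28 higher, 2 lower) and kinetochore proteins (12 of 28 higher, 2 lower) had medians of 0.26 and 0.24, and kinesins (11 of 35 higher, 3 lower) had one of 0.05. PLK1, the kinase that drives entry into mitosis, measured 2558 and 2899 counts at 100% and 5140, 5193 and 5348 at 12.5% (1.92-fold higher, log2 0.94, SE 0.08, adjusted p = 1.22e-09). CDC20, the activator of the anaphase-promoting complex, went from 2354 and 2559 counts to 3943, 3948 and 4276, and CDCA3 from 380.5 and 343.9 to 1131, 972 and 1082 (2.92-fold higher). NDC80 of the kinetochore rose by 1.46, CDC25C by 1.02, the kinesin KIF4A by 1.00, FOXM1, a transcription factor of these genes, by 0.80, BIRC5 by 0.71 and AURKA by 0.58. The 2 falling kinases were TTK, of the spindle checkpoint, at 1486 and 1447 counts against 940.5, 1059 and 1121, and AURKB (-0.36). Without replicate 1 of 100% the kinase and cyclin list had 11 higher and the kinetochore list 6. The call of AURKB was lost in 7 alternatives, among them leaving out either library at 100%, or replicate 1 or 2 of 12.5%.

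The promoters of 3 of these genes are printed because they carry the pair of elements described for genes of mitosis, with capitals at each TTTGAA (the cell cycle homology region) and each CCAAT box. They come from RefSeq (GRCh38.p14) and span 110 bases before to 10 after the start: CDC20 chr1:43358871-43358990 (plus strand), PLK1 chr16:23678779-23678898 (plus strand) and CDCA3 chr12:6851277-6851396 (minus strand).
CDC20: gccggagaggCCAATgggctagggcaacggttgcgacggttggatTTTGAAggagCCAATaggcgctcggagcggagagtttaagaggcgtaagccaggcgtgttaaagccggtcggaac
PLK1: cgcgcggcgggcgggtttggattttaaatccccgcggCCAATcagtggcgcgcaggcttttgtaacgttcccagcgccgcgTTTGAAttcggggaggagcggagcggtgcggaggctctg
CDCA3: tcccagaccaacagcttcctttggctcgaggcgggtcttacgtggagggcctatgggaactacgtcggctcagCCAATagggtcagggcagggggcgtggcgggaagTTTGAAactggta
Of the 115 genes of the 5 mitotic lists with a promoter in the table, 47 (40.9%) held TTTGAA on either strand between 250 bases before and 50 after the start, against 10.6% of the 13597 tested genes with a promoter. CCAAT was found in 57.4% and 36.1%. Across all genes called higher, TTTGAA stood in 10.3% and across those called lower in 9.08%. No match says only that these letters are not in this window.

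Mitotic kinases and cyclins were also compared with other histidine levels of day 3. The comparisons below share the 3 libraries at 12.5% with the main one. Against 0% histidine, 4818 genes (21%) were called, 2864 higher (12.5%) and 1954 lower (8.5%) at 12.5%, and all 25 mitotic kinases and cyclins were higher (median 1.88). Against 25%, 1889 genes (8.22%) were called, 1243 higher (5.41%) and 646 lower (2.81%), and 15 of the 25 were higher and none lower (median 0.43). PLK1 had means of 2896 counts at 50%, 3319 at 25% and 1078 at 0%, and CDC20 of 2684, 2413 and 986.1. With the 3 libraries at 50% as the reference 16 of the 25 were higher and 3 lower (median 0.29). BIRC5 was higher than at 25% by 0.59 and than at 0% by 2.21. The split of the calls against 25% depends on the scaling: total-sum scaling gave 581 higher and 1063 lower, and the mitotic kinases then still had 15 higher and none lower (median 0.35). With library position in the fit 238 genes were called against 25%, and 10 of these 25 kinases and cyclins were higher.

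**Figure D2:**
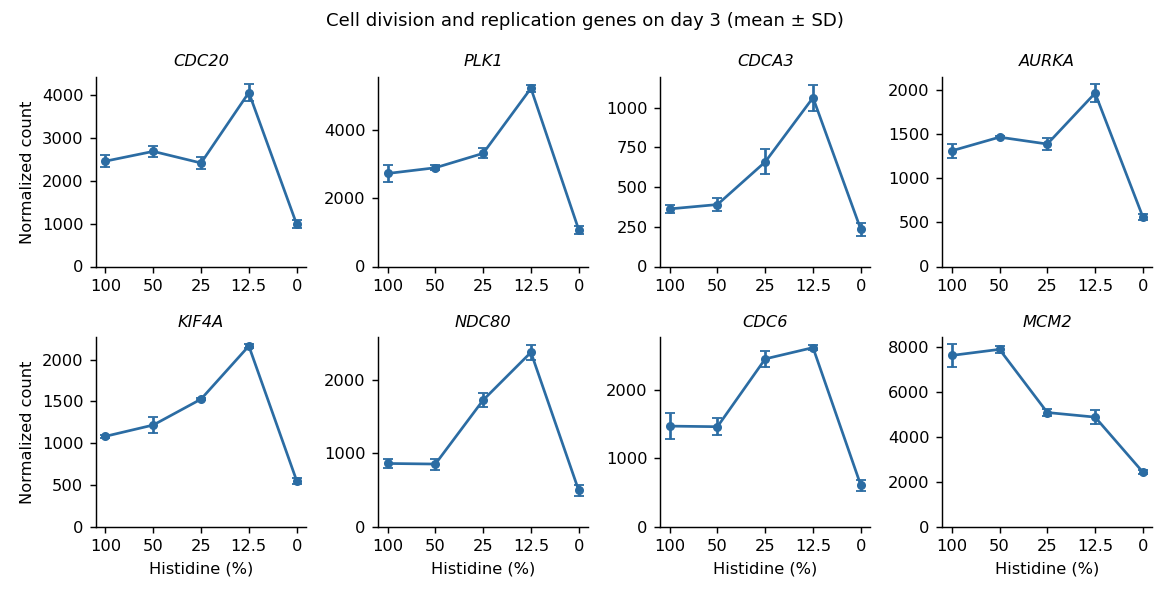
Mean normalized counts with SD of 8 cell division and replication genes at the 5 histidine levels of day 3 (2 libraries at 100%, 3 at each other level). CDC20, PLK1, CDCA3, AURKA, KIF4A and NDC80 are highest at 12.5% and lowest at 0%, with PLK1 at 1078 at 0%, whereas MCM2 falls from the 100% level to 12.5% and again to 0%.

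Taking all genes called higher at 12.5% than at 100%, 25% and 0%, there were 264, and 95 were lower than in all 3. The leading ones by the smallest of the 3 differences were SAC3D1, CDC20, CDCA3, TMEM71, PLK1 and CCNB1, 4 of them genes of cell division. CCNB1, cyclin B1, measured 943.8 and 818.3 counts at 100% and 1501, 1470 and 1198 at 12.5%, and the 50% libraries averaged 1148. Both counts depend on the processing. Quantile normalization gave 127 highest and 130 lowest, total-sum scaling 159 and 131, and library position in the fit 48 and 12. Leaving out replicate 1 or 3 of 12.5% gave 176 and 179 highest genes, leaving out replicate 2 of 25% gave 164, and the fit of only the compared groups gave 51 lowest. SAC3D1 and TMEM71 lost their call against 100% without replicate 1 of 100%. With library position SAC3D1, CDCA3 and TMEM71 lost it against 25%, and TMEM71 also against 0%. TMEM71 lost it without replicate 1 or 2 of 0%, and against 25% without replicate 1 of 12.5% or replicate 3 of 25%. Of the genes lowest at 12.5%, H2AC19 (197.8 and 220.8 counts against 107.5, 6.99 and 1.06), PIK3R6, PRDM12, PTCHD1, ZNF662 and CARMAL led, and their libraries at 12.5% held a few counts each, apart from replicate 1 of H2AC19. Each of these 6 genes lost its call against at least 1 of the 3 media in at least 1 alternative. Leaving out single libraries did so for PTCHD1, ZNF662, CARMAL and H2AC19, such as replicate 1 of 100% for PTCHD1, ZNF662 and CARMAL.

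Genes of DNA replication were less uniform. Of 44 origin, MCM, GINS and polymerase genes 16 rose and 9 fell against 100% (median 0.19). RFC4, a clamp loader subunit, rose from 1490 and 1382 counts to 2938, 2735 and 2840 (log2 0.98), CDC45 by 0.92 and CDC6, a licensing factor, by 0.84, while MCM2 fell from 7263 and 7987 to 5017, 5113 and 4511 (log2 -0.64) and CDT1 by 0.42. Against 0% 39 of the 44 were higher and none lower (median 1.16), MCM2 included (1.00). Of 29 homologous recombination and Fanconi genes 8 rose and 2 fell, led by BRCA2 (0.95), while 5 rose without replicate 1 of 100% and 5 fell against the 50% reference. G1 regulators had 11 of 27 higher and 4 lower, with the inhibitor CDKN2D (1.34), E2F8 (0.92) and E2F1 (0.58) higher and the cyclin CCND2 (-1.13) lower. Without replicate 1 of 100% 7 of them were higher and without replicate 3 of 100% 2 were lower. CDKN1A, which encodes the cyclin-dependent kinase inhibitor p21, measured 308.1 and 318.5 counts against 256.4, 216.1 and 328.4 and was not called (adjusted p = 0.595). Among 22 damage response genes 2 rose and 3 fell, GADD45B the most (log2 -1.64), calls no denser than over protein-coding genes (35.6% in either direction).

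MYC, the transcription factor that drives growth, was lower by more than most genes. It measured 8845 and 10510 counts at 100% and 2187, 2059 and 2008 at 12.5% (4.63-fold lower, log2 -2.21, SE 0.08, adjusted p = 4.34e-17), and its libraries at 12.5% lay below the means at 25% (2995) and 0% (3337) too. MYCL fell by 1.14 and MXD1 by 1.09, while MYCN rose by 0.56, MAX by 0.40 and MXD3 by 0.40. The calls of MAX and MXD3 were lost without replicate 1 of 100%, that of MYCN without replicate 3 of 100% or replicate 2 of 12.5%, and those of MYCN and MXD3 without replicate 3 of 12.5%. Of 46 genes of RNA polymerases I and III and nucleolar processing, many of them known MYC targets, 18 fell and 6 rose (median -0.20). FBL, fibrillarin, went from 6733 and 7701 counts to 3678, 3496 and 4014 (1.93-fold lower), and POLR1B fell by 0.70. MAF1, the repressor of RNA polymerase III, rose from 2485 and 3053 counts to 5345, 5475 and 5465 (log2 0.98), and NOP56, a host of small nucleolar RNAs, by 1.07. The E-box CACGTG, to which MYC and MAX bind, was in 13 of 36 promoters of this list (36.1%) against 9.47% of tested genes with a promoter, 10.2% of genes called higher and 11.5% of those called lower. It was in 28.1% of the promoters of the SR and hnRNP splicing factors, a list with more rises than falls.

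Host transcripts of small nucleolar RNAs, most of which make no protein and are cleared by nonsense-mediated decay when translated, rose in 9 of 23 and fell in 3. SNHG12 (chromosome 1, 28578538 to 28583132, minus strand) measured 85.59 and 59.99 counts at 100% and 1012, 891.9 and 1014 at 12.5% (13.4-fold higher, log2 3.74, SE 0.17, adjusted p = 7.2e-15). GAS5 went from 3477 and 3720 to 9584, 8953 and 9755 (2.62-fold higher). SNHG15 and ZFAS1 rose by 1.12 and 1.06, and SNHG25 (-2.60), SNHG4 (-1.42) and SNHG19 (-0.53) fell, the last a call lost without replicate 3 of 100%. Whether strand was used in counting is not known here, so reads of these transcripts and of genes on the other strand may be mixed. The factors of that decay pathway rose in 10 of 17 and fell in 2 (median 0.25), with UPF3B at 946.2 and 858.5 counts against 2141, 1921 and 2113 and RBM8A, of the exon junction complex, at 1.13. Of these factors 6 rose without replicate 1 of 100%.

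Splicing factors of the SR and hnRNP families rose in 19 of 35 and fell in 4 (median 0.28). TRA2A rose from 1494 and 1432 counts to 2852, 2883 and 3023 (log2 1.00), CLK3 by 0.85 and HNRNPL by 0.78, and HNRNPA1 (-0.77) and SRSF2 (-0.56) fell, with 2 falls left without replicate 3 of 100%. Proteasome subunits rose in 19 of 38 and fell in 3 (median 0.25), led by PSMC2 at 1452 and 1518 counts against 2796, 2662 and 2587 (log2 0.85). Of 42 autophagy and lysosome genes 15 rose and 3 fell, among the rises TFE3 (0.92), BECN1 (0.79) and MAP1LC3B (0.78). Translation factors had 10 of 39 higher and 11 lower, with EIF1 (0.84) higher and EIF4A2 (-1.12) and EIF4B (-0.93) lower. Mitochondrial ribosomal proteins had 27 of 77 higher and 12 lower, from MRPS6 at 1.35 to MRPS25 at -1.29, with 15 higher without replicate 1 of 100% and 20 lower against the 50% reference.

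**Figure D3:**
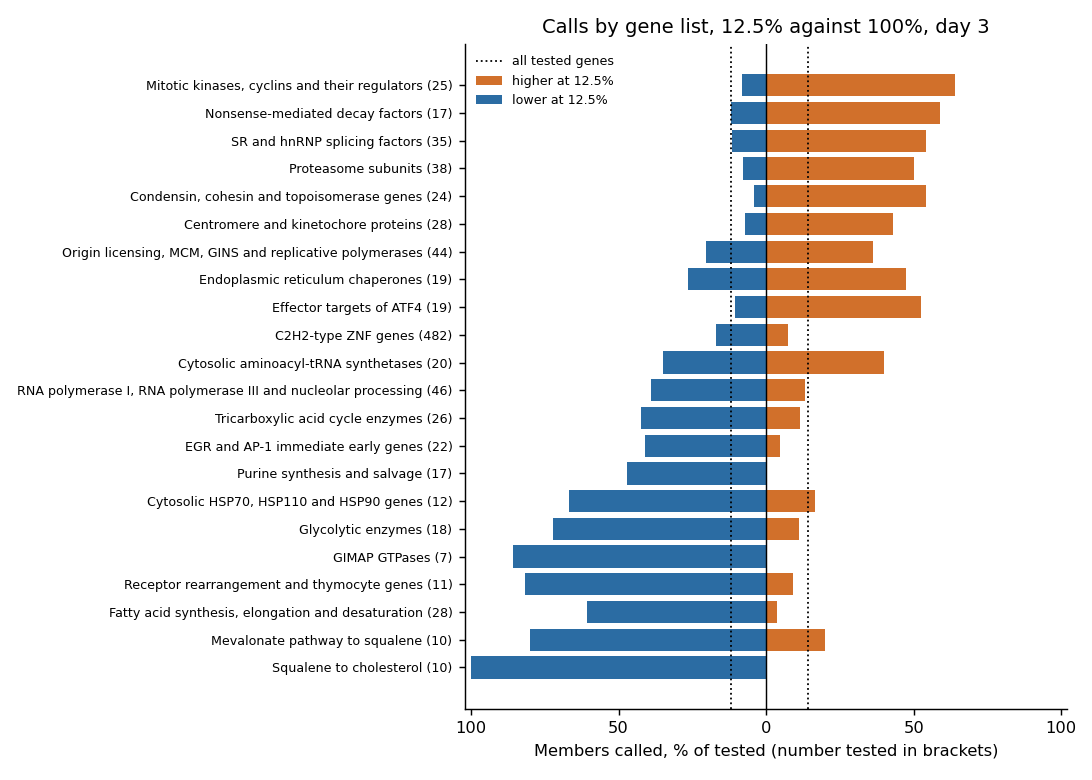
Share of the tested members of 22 gene lists called higher (orange, right) or lower (blue, left) at 12.5% than at 100% histidine on day 3, in percent, with the number tested in brackets. Dotted lines give the shares over all tested genes, 14.2% higher and 12% lower. These lines are low for lists of coding genes. Of 14859 tested protein-coding genes 2925 were called higher and 2371 lower, and calls were denser at higher levels. Cholesterol, fatty acid, thymocyte and glycolytic lists extend to the left, and mitotic, splicing, proteasome and decay factor lists to the right.

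Enzymes of glucose use were lower. Of 18 glycolytic enzymes 13 fell and 2 rose (median -0.37). ALDOC fell most, from 1750 and 1848 counts to 366.8, 348.1 and 349 (5.06-fold lower), GPI fell by 0.74 and LDHB by 0.64, and PKM (0.35) and ENO2 (0.19) rose, the call of ENO2 being lost in 11 alternatives, among them leaving out either library at 100%, or replicate 1 or 2 of 12.5%. Among 27 genes of glucose entry and the hypoxia response 15 fell and 7 rose, the rises including TXNIP, ARRDC4 and ARRDC3. PDK1, which closes the mitochondrial entry of pyruvate, measured 1543 and 1593 counts against 419.3, 606 and 569, SLC2A1, the main glucose transporter, fell by 0.77, and CA9, a hypoxia marker, was listed at 0 in all 3 libraries at 12.5% against 10.71 and 37.86 counts. Tricarboxylic acid cycle enzymes fell in 11 of 26 and rose in 3, while nuclear-encoded respiratory chain genes rose in 14 of 36 and fell in 5. Without replicate 3 of 100% 7 of the cycle enzymes were lower, and the respiratory chain had 5 higher without replicate 1 of 100% and 9 against the 50% reference. Purine synthesis fell in 8 of 17 with none higher, led by IMPDH2, the rate-limiting enzyme of guanine nucleotides, at 5883 and 6431 counts against 2138, 2059 and 2139. Pyrimidine and deoxynucleotide enzymes rose in 7 of 23 and fell in 2, with DTYMK, thymidylate kinase, 2.5-fold higher, and TKT of the pentose phosphate pathway fell by 1.22.

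Redox, iron and polyamine genes changed in both directions. TXNRD1, thioredoxin reductase, rose by 0.64 and NQO1 by 0.52, while HMOX1 (-1.59), the superoxide dismutase SOD1 (-1.15) and PRDX1 (-0.59) fell, in all 9 of 28 higher and 8 lower (5 higher without replicate 1 of 100%, 4 lower without replicate 3 of 100%). FTH1, ferritin heavy chain, rose by 0.48 and FTL fell by 0.47, with the transferrin receptor TFRC lower by 0.79. Of 13 polyamine genes 6 rose and 2 fell (median 0.37), with 3 rises called without replicate 1 of 100%, led by SMOX, spermine oxidase, at 1067 and 996.3 counts against 2142, 2094 and 2165. The BCL2 family changed little, with BAD (0.66), BAK1 (0.52) and BAX (0.41) higher and BID (-0.65) lower among 16 tested, and the call of BAX was lost without replicate 1 of 100%.

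T-lineage genes changed in both directions. Genes of receptor rearrangement and immature thymocytes fell in 9 of 11 and rose in 1 (median -1.09): DNTT, the terminal transferase, went from 7747 and 7435 counts to 1422, 1470 and 1521 (5.16-fold lower, adjusted p = 4.72e-21), RAG2 from 1000 and 1028 to 197.5, 237.4 and 171.1, and CD1D from 2679 and 2761 to 517.4, 565.7 and 575.3. RAG1, the partner of RAG2, fell by 1.09. Components of the T-cell receptor rose in part, TRAC from 4322 and 4165 counts to 11510, 10460 and 11370 (2.62-fold higher), CD3E by 0.59 and CD3D by 0.43, and CD4 (-1.52), CD5 (-1.05), CD2 (-0.77) and CD247 (-0.36) fell, in all 8 of 25 higher and 5 lower. Without replicate 3 of 100% 3 were lower, and the call of CD247 was lost. Of 24 TAL1 complex and T-lineage factors 11 fell and 1 rose, with MYB at 12180 and 11810 counts against 6182, 5990 and 6057 and TAL1 itself not called (0.04, adjusted p = 0.75). NOTCH1 fell by 0.67. In bulk libraries, fewer cells of a kind and less RNA per cell cannot be told apart.

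Small GTPases of the GIMAP family, which act in lymphocyte survival, fell in 6 of 7 (median -1.20). GIMAP4 went from 384.7 and 508.9 counts to 40.14, 24.98 and 82.36 (9.93-fold lower). Among chemokine and trafficking receptors 6 of 16 fell and 3 rose. CCR8 measured 246.2 and 209.9 counts against 10.31, 3.41 and 7.29 (log2 -4.94, adjusted p = 8.3e-11), and the integrin chain ITGA4 16380 and 16910 against 3769, 4602 and 4104 (4.01-fold lower). CCR4 (-1.89) and S1PR1 (-1.25) fell as well, and S1PR3 (1.52), ITGA6 (0.59) and CXCR4 (0.21) rose. The call of CXCR4 was lost in 8 alternatives, among them leaving out either library at 100%, or replicate 1 or 2 of 12.5%.

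Immediate early genes and the feedback inhibitors of MAP kinase signalling were mostly lower or uncalled. Of 22 EGR and AP-1 genes 9 fell and 1 rose (median -0.77), with EGR1 at 4138 and 4659 counts against 1088, 1208 and 1162 (3.81-fold lower) and NR4A1 lower by 1.48, and JUND the 1 that rose (0.38). The call of JUND was lost in 5 alternatives, among them leaving out replicate 1 of 100% or replicate 3 of 12.5%. FOS read 461.8 and 512.1 against 248.9, 225.3 and 272.7, groups that did not overlap, but did not pass (adjusted p = 0.13), although it did when the fit held only the 5 libraries compared. SPRY4 (-1.99), DUSP2 (-1.80) and DUSP1 (-1.30) fell among 7 of 15 feedback genes, with 2 higher. Of 17 NFAT and NF-kB targets 6 fell and none rose, CD40LG by 2.58. Interferon factors and STAT targets had 6 of 35 higher and 2 lower, with IRF7 at 136.8 and 77.57 counts against 328.4, 361.4 and 318.1 and STAT5A lower by 1.57. Calls in this last list were no denser than over protein-coding genes (35.6% in either direction).

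Among chromatin genes, variant and replication-dependent histones rose in 10 of 19 and fell in 1 (median 0.44). H3-3B, named above, was among the rises, H2AZ1 rose by 0.51 and H1-10 by 1.00. H2BC5 rose from 34.06 and 41.26 counts to 86.65, 110.7 and 113.9, and H2BC21 fell by 1.31. Many replication-dependent histone genes are near-identical and their counts are uncertain. EZH2, which methylates histone H3, rose by 0.78, among 4 rises and 4 falls in 27 DNA and histone methylation enzymes (2 falls without either library at 100% or without replicate 1 of 12.5%). Calls among these enzymes were no denser than over protein-coding genes (35.6% in either direction). Zinc finger genes named ZNF and a number had 35 of 482 higher and 81 lower, with a median of -0.13, against 14.2% and 12% of all tested genes. Of 14859 tested protein-coding genes 2925 were called higher and 2371 lower. The ZNF falls were thus near the coding-gene share and the rises below it. Over the alternatives 46 to 108 ZNF genes were lower, 46 of them without replicate 1 of 100%.

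The coding sequences of the genes that rose held fewer histidine codons than those of the genes that fell. The median share of histidine codons was 2.17% in genes called higher, 2.61% in genes called lower and 2.495% in genes not called, over 14519 genes with a coding sequence in GENCODE 29. In quintiles of that share, from the lowest to the highest, 29.3%, 21.6%, 17.9%, 17.2% and 12.4% of genes were called higher and 12.7%, 14%, 16.3%, 17.7% and 18.9% lower. The median difference went from 0.11 in the lowest quintile to -0.09 in the highest. Across genes Spearman's rho between the histidine share and the log2 difference was -0.12, the largest in size of the 20 amino acids (glutamate was next at 0.07), and -0.17 over the 10437 genes with a mean of at least 100 counts, where cysteine was next at -0.09. Genes are not independent replicates, and rho is given without a p.

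Zinc finger genes, rich in histidine (median 6.30%), do not make up the pattern alone: without them rho was -0.11. Properties that go with the histidine share were looked at beside it. The median level at 100% fell from 613.6 counts in the lowest quintile to 360.1 in the highest, and rho with the level was 0.17, with coding length -0.09 and with GC3 (the share of G and C at the last codon position) -0.07. In quintiles of level the contrast was not uniform. Within the lowest level 3.14% of the genes with the lowest histidine share were higher against 2.03% of those with the highest share, with medians of -0.17 and -0.16 that go the other way, and within the next level 11.4% against 6.33%, with nearly equal shares called lower (18.6% and 18.3%). Within the middle level 25.5% against 11.8% were higher, and within the next 45.9% against 21.2%. Within the highest level, 50.9% of the genes with the lowest histidine share were higher against 28.6% of those with the highest share. In each quintile of coding length and of GC3, the lowest-histidine genes were also called higher more often than the highest-histidine genes, by 32.8% against 19.9% among the shortest sequences and by 34.7% against 9.24% at the lowest GC3. The 2 histidine codons differed, with rho of -0.11 for CAC, the largest in size of 61 codons, and -0.03 for CAT, which ranked 40.

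**Figure D4:**
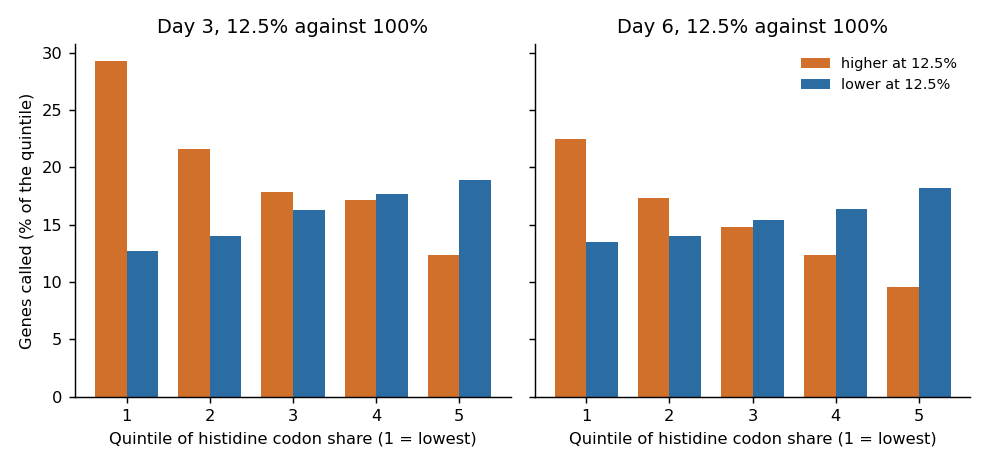
Percent of genes called higher (orange) or lower (blue) at 12.5% than at 100% histidine, by quintile of the share of histidine codons in the coding sequence, on day 3 (left) and in the separate libraries of day 6 (right). On day 3 the share called higher falls from 29.3% to 12.4% over the quintiles and the share called lower rises from 12.7% to 18.9%, and on day 6 from 22.5% to 9.58% and from 13.5% to 18.2%.

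In the day 6 libraries, which are separate from those of day 3, the order over the quintiles was the same: 22.5%, 17.3%, 14.8%, 12.4% and 9.58% of genes were called higher and 13.5%, 14%, 15.4%, 16.4% and 18.2% lower. There rho was -0.11 and histidine again first of 20, with glutamate close behind at 0.09. In the comparison of 50% with 100% on day 3, which shares the 100% libraries, rho was -0.01 and histidine ranked 15. Against 25% it was -0.05 (rank 9) and against 0% -0.08 (rank 1, but rank 2 without the ZNF genes). Between day 6 and day 3 at 100% histidine, where medium was the same, it was 0.08 (rank 4). The codon shares are of the annotated proteins, not of what these cells translated.

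On day 6 the same media were compared in 2 libraries at 12.5% and 3 at 100%, and 5036 genes (21.9%) were called, 2482 higher (10.8%) and 2554 lower (11.1%). Of the 3257 genes higher on day 3, 2907 had a difference above 0 on day 6 and 1717 were called higher there. Of the 2761 lower on day 3, 2476 were below 0 and 1542 were called lower, and 67 genes were called in opposite directions. The difference between the days, tested directly, was called for 836 genes (3.64%), 542 with a higher value on day 3 (2.36%) and 294 with a lower one (1.28%), and 645 of them were also called on day 3. TXNIP was as far apart on day 6 (518.5 counts at 100% and 9481 at 12.5%, log2 4.19), CHI3L2 (-3.05), ALDH1A2 (-2.79), DNTT (-3.31), MYC (-1.69) and SNHG12 (3.44) stayed on their side, and none of the 25 mitotic kinases and cyclins differed between days (16 higher and 1 lower on day 6, median 0.48).

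Some groups did differ between days. All but 1 of the 19 endoplasmic reticulum chaperones had a day 3 difference that was called apart from that of day 6, where 18 were lower and none higher (median -0.76). HSPA5 measured a mean of 35060 counts at 100% on day 6 against 6694 at 12.5% (log2 -2.37), while on day 3 it was lower by 0.77. Immediate early genes went the other way, with 13 of 22 higher and 1 lower on day 6 (median 0.55) and 12 called different between days, among them EGR1, at 1037 counts at 100% and 1494 at 12.5% on day 6. Of the 10 enzymes after squalene 9 were lower on day 6 (median -1.35, against -1.88 on day 3), and 5 differed between days. HMGCS1 fell by 3.21 on day 3 and by 1.32 on day 6, where the 100% libraries averaged 2741 counts. DDIT3 was higher by 0.72 on day 3 and lower by 1.27 on day 6.

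**Figure D5:**
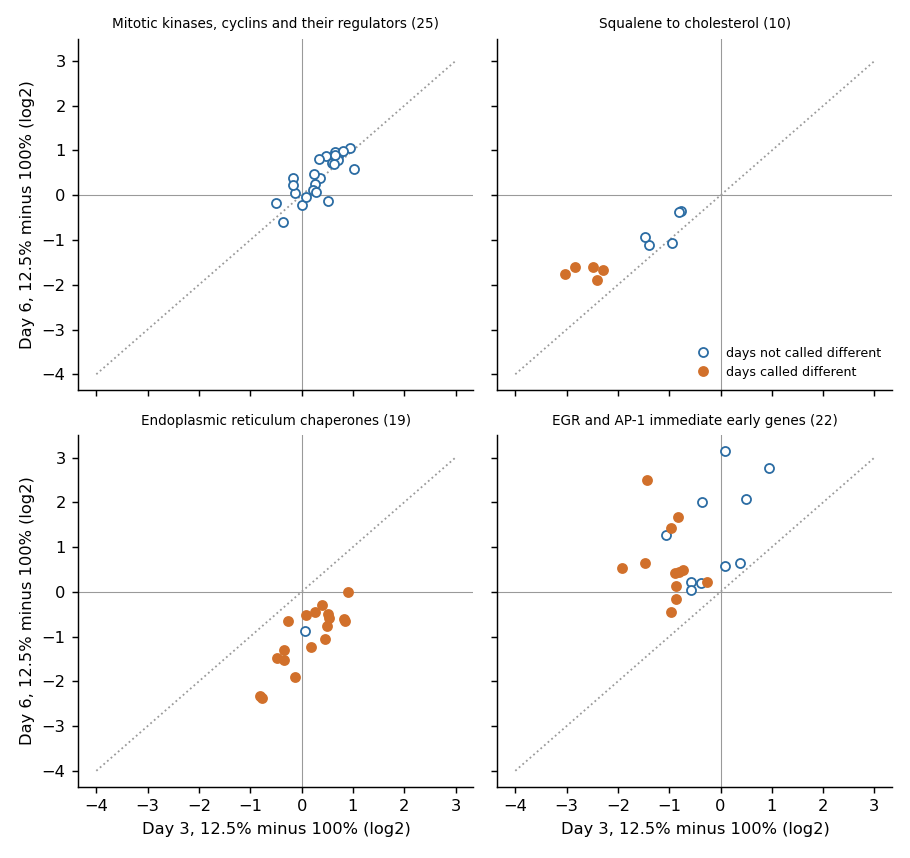
Log2 differences of 12.5% minus 100% histidine on day 3 (x axis) and day 6 (y axis) for the tested members of 4 gene lists, filled where the days were called different, with a dotted line of equal values. Mitotic kinases lie near the line with none filled, endoplasmic reticulum chaperones lie below it with 18 of 19 filled, and immediate early genes lie above it with 12 of 22 filled.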

How the data were processed

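RNA-seq of Jurkat cells gave 1 table of 25 libraries. Per the labels' protocols, total RNA was made into strand-specific Illumina libraries. FastQC 0.11.9, kallisto 0.50.1, DESeq2 1.44.0 and the build GRCh38 are named in the submitters' processing notes, with no role for each. Which gene annotation and strand setting they used is not stated there. The values deposited by the authors are a normalized signal (gene counts scaled per library). Only 55.7% to 75.5% of low values over the 25 libraries (up to 20 reads, tolerance 0.05) were whole reads, so no count model was run, the depth is unknown, and no counting interval can be given.

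Groups were taken from the labels. Genes that reached 10 in 2 or more libraries were tested on log2(value + 1), with a pseudocount of 1, in limma 3.58.1 (R 4.3.3) over all 25 libraries and 9 groups, with trend and robust moderation and Benjamini-Hochberg adjustment. The fit was tested on simulated data with independent noise, which does not cover effects that the genes of a library share. Folds understate changes of low genes. The comparison, the gene lists and the rule for named genes were chosen with earlier results of these data known. The rule took the 12 largest rises and falls with at least 100 in the lower group, the 8 largest in counts, genes switched on or off, the 6 leading genes highest or lowest at 12.5%, the 6 that differed most between days, and up to 4 of the strongest calls of each list. Further members, the codon shares and their strata were picked after values had been seen. Alternatives were other pseudocounts, filters, scalings, moderation, a replicate block, library position (the library number in the labels modulo 8), the 50% reference, and leaving out each library. Coordinates and coding sequences are from GENCODE 29, promoters from RefSeq. Some genes that the rule takes are not reported here.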

Additional observations from a re-analysis of the deposited data

Results flagged for a closer look

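The difference between 12.5% and 100% histidine was itself different on day 3 and day 6 for 836 genes (limma, interaction of day and medium, adjusted p under 0.05). Of the genes named by rule, those further up on day 3 than on day 6 were RIGI, a sensor of viral RNA (difference of the differences 5.01 on the log2 scale), KLHDC7B (3.27), TRIB3 (2.16), IL31RA (2.06), DDIT3 (1.99) and PARP11 (1.99). RIGI measured 20.14 and 0 counts at 100% on day 3, a mean of 88.94 at 50% and 157.7 at 100% on day 6. Of 20 alternatives the call between days was lost in 11 for RIGI, 10 for IL31RA and 8 for PARP11. For RIGI these include leaving out replicate 3 of 100% or replicate 1 or 3 of 12.5% on day 3, or any of the 5 libraries of day 6. For IL31RA they include either library at 100% or replicate 1 or 3 of 12.5% on day 3, and replicate 1 or 3 of 100% or either library at 12.5% on day 6. For PARP11 they include either library at 100% or replicate 1 of 12.5% on day 3, and replicate 1 or 2 of 100% or replicate 1 of 12.5% on day 6. PARP11 also had a mean of 386.6 counts at 50%, nearer to 12.5% than to the 173.5 and 179.4 counts at 100%.

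Those further down on day 3 were HSPA6 (-5.60), HSPA1B (-5.21), HSPA1A (-3.79), ARC (-3.60), IER5L (-3.47) and DNAJB1 (-2.96). For the chaperones the levels at 12.5% were low on both days, and those at 100% were high on day 3 alone. ARC, an immediate early gene, went from 101.9 and 125.8 counts to 9.47, 5.80 and 17.06 on day 3, with means of 21.13 and 24.48 on day 6.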

How the results depend on the processing

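Over the 16 alternatives the number of genes called between 12.5% and 100% on day 3 stayed within 1.5 times of 6018. Leaving out 1 library gave 4431 to 5486 calls on day 3 against 100%, 4065 to 4228 against 0%, 1135 to 1451 against 25%, 3175 to 4414 on day 6 and 379 to 756 for the difference between days. With library position as a term 2723 genes were called against 0%, 238 against 25% and 549 between days. Quantile normalization gave 1232 against 25% and limma without trend and robust moderation gave 510 between days. The cause of these shifts was not tested. Of 6232 values of 390 named or listed genes in the main comparison 179 lost their call, 3 gained one and 13 changed sign. Under quantile normalization the signs of EEF1A1 (0.0424), EEF2 (0.138), ACTB (0.0949), HARS1 (-0.0425) and TAL1 (-0.0599) changed, under the replicate block that of ASNS (0.0109), and against the 50% reference those of SCAP (0.0777) and HBA2 (-2.87). Leaving out 1 library, HARS1 ranged from -0.013 to 0.105, ATF4 from -0.132 to 0.0322, TAL1 from -0.0729 to 0.151 and SCAP from -0.0618 to 0.0133. On day 6 KLHDC7B ranged from -0.14 (without replicate 2 of 100%) to 0.233, RIGI from -0.985 to 0.0432 and PARP11 from -0.923 to 0.0252 (both highest without replicate 1 of 12.5%). No pairing of libraries by replicate number was seen. Deviations of day 3 libraries correlated at -0.0389 to 0.0295 for the same number and at -0.0542 to 0.0389 for different numbers. With 2 or 3 libraries per group this check cannot exclude a pairing. With the number as a replicate block 5857 genes were called on day 3 against 100%, 4841 against 0%, 1882 against 25%, 4782 on day 6 and 876 between days. The day 3 groups hold 2 and 3 libraries, so single-library effects weigh heavily, and low genes have no known depth.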
